A study of Mus musculus with 6 samples.

Results

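This account follows 10 mouse genes through spleen iT cells. H2-Aa, H2-Ab1, H2-Eb1 and Cd74 encode the MHC class II machinery, Tyrobp and Fcer1g encode signalling adaptors, and Lyz2, Cst3, Csf1r and Apoe are used as markers of myeloid cells. They were picked by name, and each matched 1 row of an expression table of 23420 rows. The question was whether a trace of antigen-presenting cells could be read in any library, and whether that trace was shared by all of them. The data were 6 RNA sequencing libraries of 1000 sorted cells each, 3 of CD4 single-positive (CD4SP) and 3 of CD8 single-positive (CD8SP) iT cells. Values are TPM, an abundance corrected for transcript length and expressed relative to all transcripts of a library. Differences are given as log2FC, the log2 fold change of log2(TPM + 1) as CD4SP minus CD8SP, so that positive values are higher in CD4SP.

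iT cells are induced T cells. They arose in B-NDG mice that had been irradiated and given blood progenitors made in culture from mouse pluripotent stem cells on a C57BL/6 (CD45.2) background, and those stem cells carried a doxycycline-inducible Runx1-p2a-Hoxa9 cassette in the Rosa26 locus (iR9 cells). B-NDG hosts (CD45.1) carry the Prkdc scid mutation on a NOD background and lack Il2rg, so they have no T, B or NK cells of their own but keep myeloid cells. Donor cells were sorted with a gate that included CD45.2+, Ter119- and CD11b- and either CD4+ or CD8+. All of this was common to both groups, and the sorted coreceptor was the only labelled difference. The gate excluded CD11b+ myeloid cells and host CD45.1 cells. It held no antibody against NK1.1, CD11c or class II itself, and some dendritic cells carry CD4 or CD8. The study called each library a biological replicate, but the labels do not say which mouse each came from, so p-values measure the spread between these libraries. In bulk RNA, fewer cells of a type and less RNA per cell cannot be told apart.

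MHC class II molecules display peptides taken up from outside the cell to CD4 T cells. An alpha chain and a beta chain are built around the invariant chain Cd74, which blocks the groove and guides the complex to endosomes. There proteases trim Cd74 and H2-DM exchanges the remnant for a peptide. Dendritic cells, macrophages and B cells make these proteins at high levels, while resting mouse T cells are known for very little. Transcription depends on the coactivator CIITA, which has no DNA contact of its own and docks on factors bound to a conserved promoter module, whose X box and Y box bind the RFX complex and NF-Y. Tyrobp (DAP12) and Fcer1g (the Fc receptor gamma chain) are membrane adaptors that carry an ITAM, the tyrosine motif that recruits Syk or Zap70, and they serve receptors of myeloid and NK cells.

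The promoter module is shown because the class II chains moved together while H2-Oa, which also carries it, did not. RefSeq promoter windows (GRCm38.p6, 250 bases before to 50 after a start) matched 6 of the 10 genes. Each window was searched on its own strand for the letters GCAAC of the X box followed by GATTGG of the Y box, with 25 to 45 bases between their first letters. This search was written after the sequences had been seen. On either strand, 115 of 32851 promoter windows (0.350%) held such a pair. H2-Aa and H2-Eb1 held it, and Lyz2, Cst3, Fcer1g and Apoe did not. Of other class II genes it was in H2-Oa, H2-Ob and H2-Eb2 and not in H2-DMa, H2-DMb1 or H2-DMb2. Each H2-DM window held only the X letters or only the Y letters on either strand. A module with other letters or outside the window would be missed, so absence of the pair does not show that the module is absent. Each sequence below is read 5′ to 3′ along its gene and ends upstream of the start site, with both motifs in capitals.
H2-Aa: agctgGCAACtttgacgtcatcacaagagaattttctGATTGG
H2-Eb1: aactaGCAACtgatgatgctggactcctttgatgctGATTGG
H2-Oa: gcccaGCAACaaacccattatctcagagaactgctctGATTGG
H2-Ob: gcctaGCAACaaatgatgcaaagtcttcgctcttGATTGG
H2-Eb2: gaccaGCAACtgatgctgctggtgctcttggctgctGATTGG

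The H2-Aa stretch lies at chr17:34287867-34287909 on the minus strand. The others lie on the plus strand of chromosome 17, H2-Eb1 at chr17:34305771-34305812, H2-Oa at chr17:34092298-34092340, H2-Ob at chr17:34238813-34238852 and H2-Eb2 at chr17:34325538-34325579. The first letters of the motifs were 32 bases apart in H2-Aa and H2-Oa, 31 in H2-Eb1 and H2-Eb2, and 29 in H2-Ob. A match is a description of letters and no evidence of binding. The 5 genes that carry the pair behaved in different ways in these libraries, as described beside the values of each.

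Of the 10 genes, 9 reached 1 TPM in 3 or more libraries and were tested, and 8 were at 1 TPM or more in every library. Csf1r was not tested. Called genes are those with a limma adjusted p under 0.05 and a difference beyond 2-fold on the log2(TPM + 1) scale. Of the 9 tested genes, 5 were called, namely the 4 class II genes and Lyz2. All 5 were higher in CD4SP cells, and 0 were called higher in CD8SP cells by limma, nor did any reach an unadjusted p under 0.05 in that direction. Over all 10476 tested genes 9.73% were called, of which the genes higher in CD4SP were 7.92% of those tested and the genes higher in CD8SP 1.80%. In 6 of the 9 all CD4SP libraries were above all CD8SP libraries, an order that 36.6% of all tested genes had. The median log2FC was 1.56 over the 9 tested genes and 0.28 over all tested genes, so the typical gene was itself somewhat higher in CD4SP TPM. Genes with low values have their change understated on this scale.

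**Figure D1:**
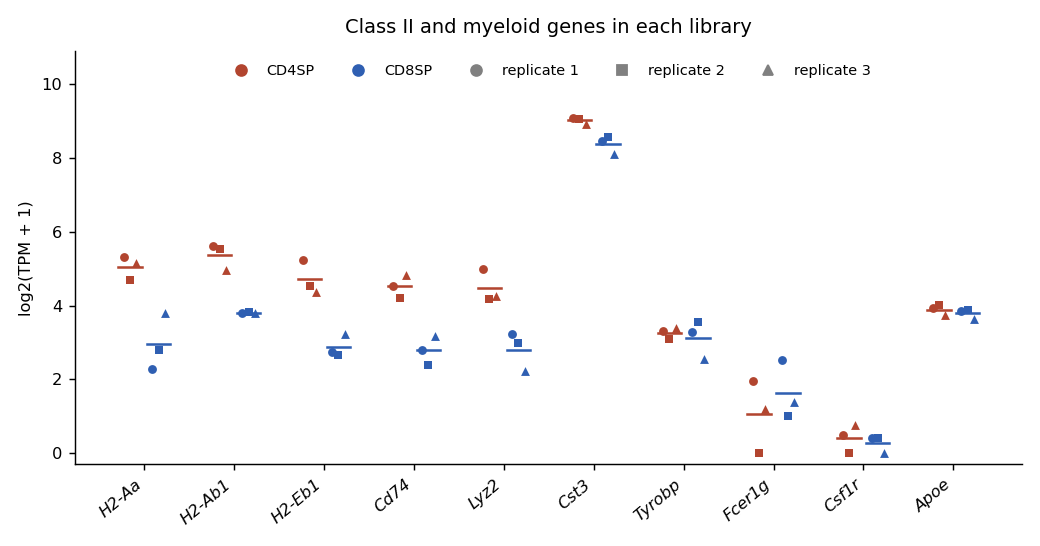
The 10 genes on the log2(TPM + 1) axis in each library, with CD4SP libraries in red, CD8SP libraries in blue, marker shapes for replicates and bars for the mean of 3 libraries. H2-Aa, H2-Ab1, H2-Eb1, Cd74, Lyz2 and Cst3 have all CD4SP points above all CD8SP points, whereas Tyrobp, Fcer1g, Csf1r and Apoe overlap.

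H2-Aa encodes the alpha chain of I-A, which pairs with the product of H2-Ab1. CD4SP replicates 1 to 3 held 38.7, 25.1 and 34.7 TPM of it, and CD8SP replicates 1 to 3 held 3.88, 5.97 and 13.04 TPM. The lowest CD4SP library was above the highest CD8SP library, although CD8SP replicate 3 stood well above the other CD8SP libraries. The mean was 32.8 ± 6.98 TPM (SD, n = 3) for CD4SP and 7.63 ± 4.80 TPM (SD, n = 3) in CD8SP cells, a 4.30-fold ratio of means. The log2FC was 2.09 (SE 0.37, adjusted p 0.0061), the largest difference among the tested members.

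H2-Ab1 encodes the beta chain of I-A. It was at 48.1, 44.99 and 30.3 TPM in the CD4SP libraries and at 12.99, 13.32 and 12.81 TPM in the CD8SP libraries. The CD8SP values were nearly equal, with a mean of 13.04 ± 0.259 TPM (SD, n = 3), against 41.1 ± 9.49 TPM (SD, n = 3) in CD4SP cells. The log2FC was 1.56 (SE 0.20, adjusted p 0.00143). In CD8SP replicates 1 and 2 it was the most abundant of the 4 class II genes, and H2-Aa reached only 0.299 and 0.448 of its level there. In CD8SP replicate 3 the same ratio was 1.02, and in CD4SP replicates 1 to 3 it was 0.804, 0.557 and 1.14. The alpha and beta chains of I-A thus did not keep a fixed proportion in either group.

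H2-Eb1 encodes the beta chain of I-E, the other class II molecule. It was at 36.5, 22.2 and 19.8 TPM in the CD4SP and at 5.75, 5.36 and 8.35 TPM in the CD8SP libraries. The groups did not overlap, and CD4SP replicate 1 stood above the other CD4SP libraries. The log2FC was 1.83 (SE 0.27, adjusted p 0.00284). The row annotated as its alpha partner in C57BL/6 mice, the pseudogene H2-Ea-ps, was listed at 0 in all libraries. Relative to H2-Ab1, H2-Eb1 stayed between 0.402 and 0.759 over the 6 libraries.

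Cd74, the invariant chain, was at 22.3, 17.4 and 27.2 TPM in the CD4SP and at 6.01, 4.22 and 7.97 TPM in the CD8SP libraries. All CD4SP values were above all CD8SP values. The mean was 22.3 ± 4.91 TPM (SD, n = 3) against 6.07 ± 1.88 TPM (SD, n = 3), a log2FC of 1.73 (SE 0.26, adjusted p 0.00296). Since TPM is per length, levels of different genes can be set side by side, and Cd74 was below H2-Ab1 in every library, with H2-Ab1 at 1.11 to 3.16 times its level. These 6 libraries include no sorted antigen-presenting cells as a reference for this ratio, and the source of the class II RNA was not tested.

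The 4 class II genes together summed to 146, 110 and 112 TPM in CD4SP and to 28.6, 28.9 and 42.2 TPM in CD8SP replicates 1 to 3. These sums are 0.0146%, 0.0110% and 0.0112% of all TPM in CD4SP libraries and 0.00287%, 0.00289% and 0.0042% in CD8SP libraries. Every library thus held class II transcripts, and the summed level was 3.69-fold higher in CD4SP by the ratio of means. Set against Cd3d, a T cell receptor subunit, the class II sum was 14.9%, 9.86% and 11.0% of its level in CD4SP and 2.55%, 2.59% and 3.64% in CD8SP libraries.

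**Figure D2:**
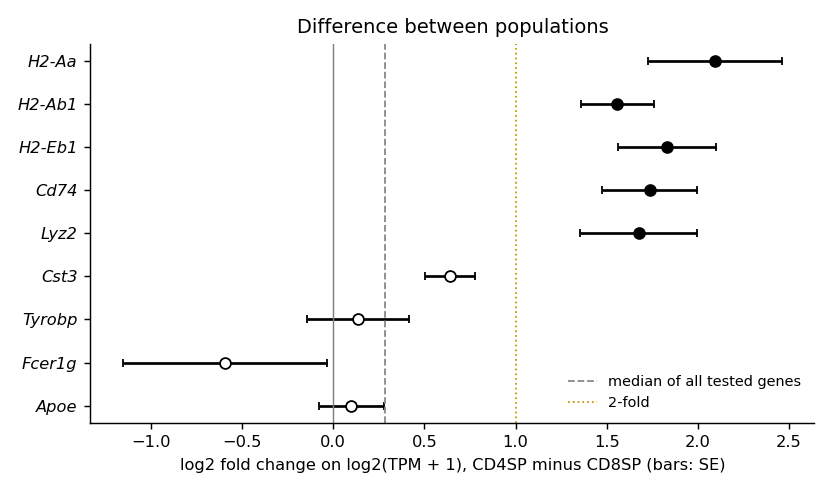
Log2FC values between CD4SP and CD8SP libraries on the log2(TPM + 1) scale for the 9 tested genes, with SE bars, filled points for called genes, a dashed line at the median of all tested genes (0.28) and a dotted line at 2-fold. The 4 class II genes and Lyz2 lie between 1.56 and 2.09, Cst3 lies at 0.64, and Tyrobp, Apoe and Fcer1g lie below the dashed line.

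The adaptors showed another pattern. Tyrobp was at 8.93, 7.49 and 9.54 TPM in the CD4SP libraries and at 8.68, 10.7 and 4.92 TPM in the CD8SP ones. The groups overlapped, and the highest and the lowest value were both in CD8SP cells. The log2FC was 0.14 (SE 0.28, adjusted p 0.749), and it turned negative with median-of-ratios rescaling (-0.14), quantile normalization (-0.23), ribosomal protein genes removed (-0.0029), library weights (-0.0093) and without CD8 replicate 3 (-0.14), so no direction is given. Fcer1g was at 2.91 and 1.28 TPM in CD4SP replicates 1 and 3 and listed at 0 in replicate 2. In CD8SP libraries it was at 4.78, 1.004 and 1.63 TPM. Its log2FC was -0.59 (SE 0.56, adjusted p 0.47), and replicate 1 had the highest value in both groups. It moved to -1.50 with a pseudocount of 0.1 and between -1.05 and -0.066 when 1 library was left out, without CD4 replicate 1 and 2 respectively. Neither adaptor was called or had an unadjusted p under 0.05.

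Receptors that use these adaptors were mostly not seen. Of a list of 14 such receptors, 12 were under 1 TPM in every library and 10 of these were listed at 0 throughout, among them Trem2, Clec5a, Fcgr1, Fcer1a and the NK cell receptor Ncr1. The 2 tested receptors were Fcgr3 and Klrk1, and neither was called in the main fit. With median-of-ratios rescaling the list had 1 call, and with quantile normalization 1. Klrk1, which encodes the NKG2D receptor of NK and CD8 T cells, was the most abundant at 17.0, 17.5 and 18.2 TPM in the CD4SP libraries and at 29.7, 22.6 and 54.2 TPM in the CD8SP ones (log2FC -0.88, SE 0.29, adjusted p 0.0601, and 0.0333 without CD8 replicate 2). Of 12 genes of ITAM signalling, 11 were tested, 0 were called by limma (9.73% of all tested genes) and 4 had an unadjusted p under 0.05, with a median log2FC of 0.09. The most abundant of them was Cd3d, at 979 to 1112 TPM in CD4SP and 1112 to 1160 TPM in CD8SP libraries. Syk, the kinase that myeloid ITAM adaptors recruit, was at 0.563, 0.372 and 0.923 TPM in CD4SP. In CD8SP cells it was listed at 0 in replicates 1 and 2 and at 0.106 TPM in replicate 3.

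Lyz2, lysozyme of macrophages and granulocytes, was at 30.9, 17.1 and 18.3 TPM in the CD4SP libraries and at 8.33, 6.87 and 3.64 TPM in the CD8SP ones. The groups did not overlap. The log2FC was 1.68 (SE 0.32, adjusted p 0.00872), and the mean was 22.1 ± 7.63 TPM (SD, n = 3) against 6.28 ± 2.40 TPM (SD, n = 3). Its near copy Lyz1, 95.8% identical over 1264 nt of transcript, was listed at 0 in all 6 libraries, and how the authors shared reads between such copies was not stated. Lyz2 was the only called member outside the class II genes.

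Cst3 encodes cystatin C, a secreted inhibitor of cysteine proteases that many cell types make and dendritic cells make in abundance. It was the most abundant of the 10 genes in every library, at 539, 529 and 490 TPM in the CD4SP libraries and at 351, 379 and 277 TPM in the CD8SP ones. The groups did not overlap, yet the ratio of means was 1.55. Its log2FC of 0.64 (SE 0.14, adjusted p 0.0131) passed the adjusted p and not the 2-fold limit, and with median-of-ratios rescaling it was 0.33 with an adjusted p of 0.129. It lay 0.36 above the median of all tested genes.

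Apoe, a lipid carrier made by macrophages among other cells, differed little between libraries. It was at 14.3, 15.1 and 12.3 TPM in the CD4SP libraries and at 13.5, 13.7 and 11.5 TPM in the CD8SP ones. The groups overlapped, and the log2FC of 0.10 (SE 0.18, adjusted p 0.716) became negative with median-of-ratios rescaling (-0.19), quantile normalization (-0.26) and ribosomal protein genes removed (-0.051). Csf1r, the receptor for macrophage colony-stimulating factor and a defining gene of the mononuclear phagocyte lineage, was at 0.397 and 0.683 TPM in CD4SP replicates 1 and 3 and listed at 0 in replicate 2. In CD8SP cells it was at 0.330 and 0.336 TPM in replicates 1 and 2 and listed at 0 in replicate 3. It was never above 1 TPM. It shares 873 exonic bases with Hmgxb3 on the opposite strand, which was at 10.7 to 13.8 TPM, and whether strand was used in counting was not stated, so even these low Csf1r values are uncertain.

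Positions are on GRCm38, 1-based, and all members are annotated as protein coding. H2-Ab1 (34257689 to 34269419, plus), H2-Aa (34282744 to 34287823, minus) and H2-Eb1 (34305867 to 34316674, plus) are neighbours in the MHC on chromosome 17. Cd74 (60803848 to 60812652) and Csf1r (61100598 to 61132149) are both on the plus strand of chromosome 18. Tyrobp (30413760 to 30417585, plus) and Apoe (19696109 to 19699188, minus) are on chromosome 7. Lyz2 is on chromosome 10 (117277331 to 117282321, minus), Cst3 on chromosome 2 (148871722 to 148875692, minus) and Fcer1g on chromosome 1 (171229572 to 171234365, minus).

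Differences between libraries of the same group were compared across the members. In CD4SP replicate 1, 6 of the 10 genes had their highest CD4SP value (H2-Aa, H2-Ab1, H2-Eb1, Lyz2, Cst3 and Fcer1g), and 0 had their lowest. In CD4SP replicate 2, 6 of the 10 had their lowest value. Among CD8SP libraries, replicate 3 held the highest H2-Aa, H2-Eb1 and Cd74 and the lowest H2-Ab1, Lyz2, Cst3, Tyrobp, Csf1r and Apoe. H2-Aa deviated there by 0.85 from the CD8SP mean on the log2(TPM + 1) scale, while Lyz2 deviated by -0.59 and Tyrobp by -0.56. Within CD8SP cells the library richest in class II was therefore the poorest in Lyz2 and Tyrobp. In the same library the B cell genes Cd22 (3.91, 4.43 and 8.03 TPM in CD8SP replicates 1 to 3) and Fcrla (0.714, 1.13 and 2.39 TPM) and the splenic macrophage regulator Spic (1.71 TPM, listed at 0 in the other CD8SP libraries) were also highest, as values chosen after they were seen. Their lists did not move as wholes, since Cd79a was lowest there (1.73, 1.58 and 1.52 TPM) and C1qb and Aif1 were listed at 0. Of 5 B cell genes above 0 in CD8SP cells 3 were highest in replicate 3 and 1 lowest, and of 8 macrophage genes 4 were highest and 3 lowest. Ms4a1 and Pax5, defining genes of B cells, were listed at 0 there. Their part in the class II level of that library was not tested. Without CD8 replicate 3 all 5 calls held, and the log2FC of H2-Aa was 2.51.

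**Figure D3:**
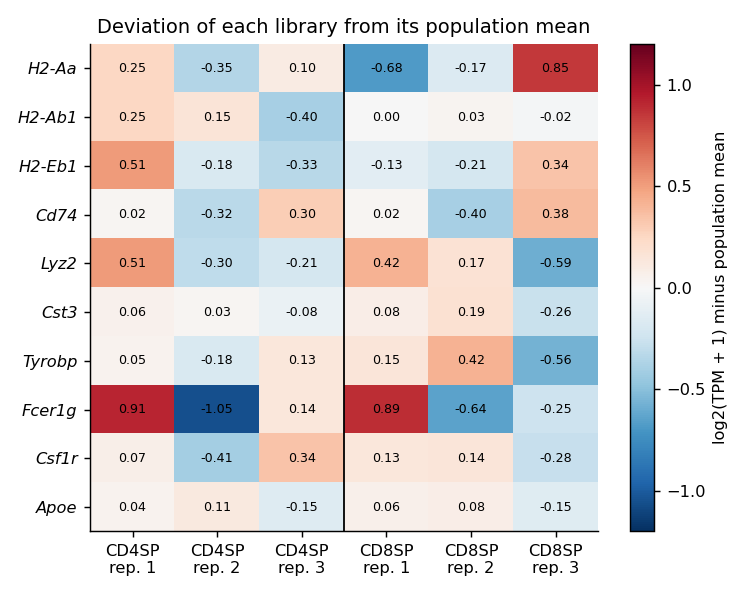
Deviation of each library from the mean of its population on the log2(TPM + 1) scale for the 10 genes, red above and blue below. CD8SP replicate 3 is above its mean for H2-Aa (0.85), H2-Eb1 and Cd74 and below it for Lyz2 (-0.59) and Tyrobp (-0.56), and CD4SP replicate 1 is above its mean for all 10 genes.

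The rest of the class II pathway was described by a list of 17 genes for processing, peptide loading, regulation and costimulation. Of these 14 were tested, 6 were called, each of them higher in CD4SP (7.92% of all tested genes), and the median log2FC was 0.95 against 0.28 for all tested genes. In 9 of the 14 all CD4SP libraries were above all CD8SP libraries (36.6% of all tested genes), and in 2 the order was the opposite. When 1 library was left out the list had 4 to 7 calls, with Cd80, H2-DMb1 or Ifi30 lost and Rfxap gained in some of these fits, and the fewest were without CD8 replicate 3.

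Costimulation and processing genes made up most of the called ones. Cd83, which steadies class II and Cd86 at the surface of dendritic cells and marks activated lymphocytes, changed most. It was at 51.0, 35.6 and 54.6 TPM in the CD4SP libraries and at 3.54, 1.99 and 3.20 TPM in the CD8SP ones (log2FC 3.62, SE 0.24, adjusted p 5.41e-05). Lgmn, an endosomal protease, was at 4.54, 8.18 and 5.32 TPM against 1.12, 0.752 and 0.570 TPM (log2FC 1.93, SE 0.29, adjusted p 0.00292). Ctss, the protease that trims Cd74 in dendritic and B cells, was the most abundant gene of the list. It was at 585, 444 and 556 TPM in the CD4SP libraries and at 226, 234 and 226 TPM in the CD8SP ones (log2FC 1.196, SE 0.13, adjusted p 5.91e-04). Cd80, a ligand of Cd28, was at 2.06, 1.96 and 4.72 TPM in CD4SP, at 1.09 TPM in CD8SP replicate 1 and listed at 0 in the other two (log2FC 1.54, SE 0.41, adjusted p 0.0316). That call was lost without CD4 replicate 1 (adjusted p 0.0559) or 3 (0.0982) and without CD8 replicate 2 (0.105) or 3 (0.0989). The lysosomal thiol reductase Ifi30 was higher in CD4SP by a log2FC of 1.10 (SE 0.24, adjusted p 0.0162), which fell under 2-fold without CD8 replicate 3 (0.80). Cd86, the other ligand of Cd28, had the opposite order, at 16.2, 13.5 and 18.3 TPM in the CD4SP libraries and at 22.6, 23.5 and 19.9 TPM in the CD8SP ones, and was not called (log2FC -0.44, SE 0.18, adjusted p 0.107).

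Peptide loading genes were split. H2-DMb1, a beta chain of the peptide exchanger H2-DM, was at 2.53, 3.54 and 1.80 TPM in CD4SP, at 0.627 TPM in CD8SP replicate 2 and listed at 0 in replicates 1 and 3 (log2FC 1.60, SE 0.33, adjusted p 0.0127, and 0.0575 without CD8 replicate 1). Its partner H2-DMa was far more abundant and overlapped between groups, at 96.4, 47.6 and 60.1 TPM in the CD4SP libraries and at 47.7, 50.04 and 51.3 TPM in the CD8SP ones. H2-DMa thus stood above H2-DMb1 in every library. H2-Oa, the alpha chain of the H2-DM inhibitor H2-O, ran against the class II chains, at 50.5, 59.0 and 63.7 TPM in the CD4SP libraries and at 107, 102 and 96.9 TPM in the CD8SP ones. Its log2FC was -0.82 (SE 0.13, adjusted p 0.0045), short of the 2-fold limit. Its beta chain H2-Ob overlapped between groups (17.4 to 24.1 TPM in CD4SP and 11.7 to 20.4 TPM in CD8SP). H2-Eb2, the neighbour of H2-Eb1, was listed at 0 in every library. The promoter letters shown for H2-Aa and H2-Eb1 were therefore also present in a gene with the opposite order of groups, in one with overlapping groups and in one listed at 0.

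Regulators of class II transcription were compared next. Ciita, the coactivator, was listed at 0 in CD4SP replicates 1 and 2 and at 0.314 TPM in replicate 3, and was at 0.254, 0.0614 and 0.197 TPM in CD8SP libraries. It did not pass the filter, and all libraries held class II transcripts at values above it. Of the RFX subunits, Rfxap was at 29.2, 22.0 and 22.4 TPM in the CD4SP libraries and at 13.1, 12.6 and 10.3 TPM in the CD8SP ones. Its log2FC of 0.97 (SE 0.19, adjusted p 0.00925) passed the adjusted p and was just short of 2-fold, a limit it passed when CD4 replicate 2 or 3 or CD8 replicate 1 or 2 was left out (log2FC 1.01 to 1.04). Rfx5 (log2FC 0.27, adjusted p 0.35) and Rfxank (0.55, adjusted p 0.0965) were not called.

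**Figure D4:**
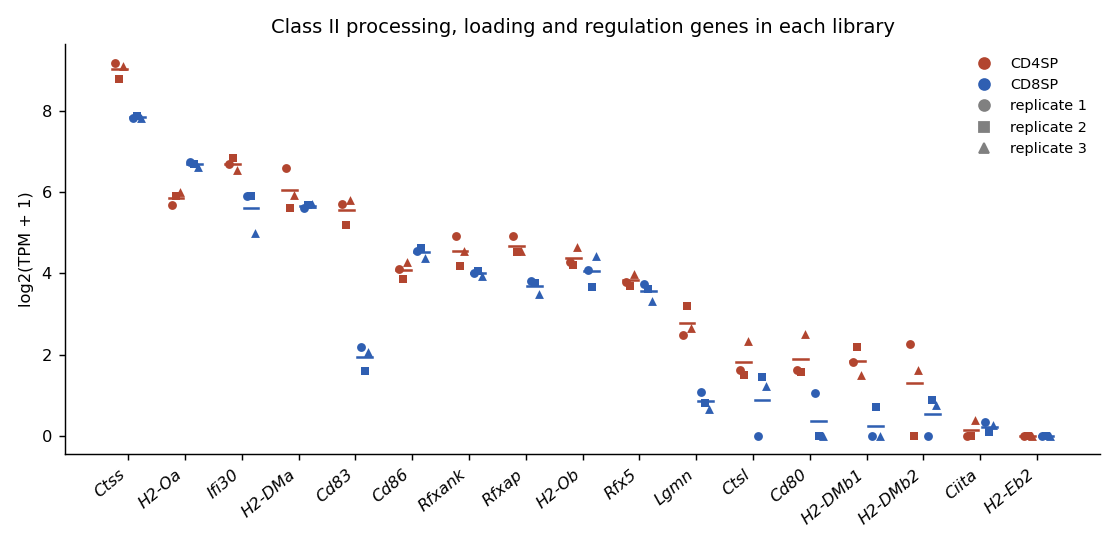
The 17 genes of the class II pathway list on the log2(TPM + 1) axis in each library, ordered by level, with CD4SP libraries in red, CD8SP libraries in blue and bars for the mean of 3 libraries. Cd83, Lgmn and Ctss are higher in all CD4SP libraries, H2-Oa and Cd86 are higher in all CD8SP libraries, and Ciita and H2-Eb2 lie at or near 0.

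Marker lists of the cells that could carry these genes were then summed in each library. T cell genes dominated, with 10 markers summing to 8361 to 8780 TPM in CD4SP and 6667 to 7569 TPM in CD8SP libraries. The kinase gene Lck was the most abundant, and Cd5, which encodes an inhibitory receptor, was the 1 called gene of the 10 (log2FC 1.63, SE 0.16, adjusted p 3.50e-04), against 9.73% called over all tested genes. The coreceptors matched the labels, with Cd4 at 279 to 331 TPM in CD4SP and at most 0.104 TPM in CD8SP libraries, and Cd8a at 0.319 to 2.93 TPM in CD4SP and 1038 to 1161 TPM in CD8SP libraries. Cd8b1, the other CD8 chain, was at 24.3 to 36.0 TPM in the CD4SP libraries, levels like those of the class II genes there, and at 2197 to 2401 TPM in CD8SP libraries.

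Macrophage markers were low and not uniform. The 16 genes summed to 16.5, 17.5 and 23.4 TPM in the CD4SP libraries and to 20.6, 16.3 and 19.5 TPM in the CD8SP ones, so the sums overlapped. Cd68 alone made up most of the CD8SP sums. Without it, a choice made after seeing the data, the other 15 genes summed to 15.0, 16.9 and 16.9 TPM in CD4SP and to 5.04, 2.83 and 1.99 TPM in CD8SP replicates 1 to 3. Cd68 was the only gene of the list with all CD8SP libraries above all CD4SP libraries, so leaving it out favoured CD4SP. Of 13 genes above 0, 4 had all CD4SP libraries above, 1 (Cd68) the opposite order, and 8 overlapped. Within each group these sums ranked the libraries differently from the class II sums. Of the 16, 8 were under 1 TPM in every library, and Fcgr1, Mertk and Cd163 were listed at 0 throughout. Emr1, which encodes F4/80, was at 0.239 and 0.260 TPM in CD4SP replicates 1 and 3 and listed at 0 in the other 4 libraries, and Itgam (CD11b, removed by the gate) was at 0.894 TPM in CD4SP replicate 3 and listed at 0 elsewhere. Of 5 tested genes, C1qb (log2FC 2.32, SE 0.37, adjusted p 0.00404) and Aif1 (1.32, SE 0.34, adjusted p 0.0297) were called higher in CD4SP (7.92% of all tested genes). Cd68, a lysosomal protein of macrophages, was called higher in CD8SP (-2.41, SE 0.50, adjusted p 0.0127), as were 1.80% of all tested genes. It was the most abundant of the list in CD8SP libraries. In CD4SP replicates 1 to 3 it was at 1.45, 0.596 and 6.59 TPM, below C1qb in each. Aif1 was no longer called without CD4 replicate 1 or 3 or CD8 replicate 2 or 3 (adjusted p 0.0599 to 0.0752), nor Cd68 without CD8 replicate 3 (0.0560). C1qb, a chain of complement C1q, was at 4.26, 9.56 and 6.98 TPM in CD4SP, at 0.862 and 0.910 TPM in CD8SP replicates 1 and 2 and listed at 0 in replicate 3. Its highest value was in CD4SP replicate 2, the library in which Lyz2 was the lowest of the CD4SP values. The chains C1qa and C1qc, made with C1qb in macrophages, overlapped between groups at 0 to 2.36 TPM. The part of macrophage RNA in the Lyz2 and class II levels was not tested.

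Dendritic cell markers followed no single order. The 10 conventional dendritic cell genes summed to 24.8 to 44.0 TPM in CD4SP and 38.0 to 38.6 TPM in CD8SP libraries. Without Itgax, a choice made after seeing the data, the other 9 summed to 43.1, 24.7 and 32.8 TPM in CD4SP and to 20.6, 21.2 and 19.9 TPM in CD8SP replicates 1 to 3. Itgax had the opposite order, so leaving it out favoured CD4SP, and Irf8 made up most of each remaining sum. Of 8 genes of the list above 0, 1 (Irf8) had all CD4SP libraries above all CD8SP libraries, 1 (Itgax) the opposite order, and 6 overlapped. Clec9a and Cd209a were listed at 0 in every library, Flt3 was at most 0.317 TPM, and Zbtb46 was at 0.869 and 0.385 TPM in CD4SP replicates 1 and 3 and listed at 0 elsewhere. Xcr1, a chemokine receptor of cross-presenting dendritic cells, was in every library, at 6.20, 3.78 and 4.05 TPM in the CD4SP libraries and at 4.39, 4.18 and 2.52 TPM in the CD8SP ones, and was not called (log2FC 0.27, adjusted p 0.502). Batf3 was at 4.62 TPM in CD4SP replicate 1 and at 0.915 and 2.64 TPM in CD8SP replicates 2 and 3 and listed at 0 elsewhere. The only called gene of the list, Itgax (CD11c), was higher in CD8SP cells, at 18.0, 17.2 and 18.1 TPM, against 0.946 and 0.0821 TPM in CD4SP replicates 1 and 2 and a listed 0 in replicate 3 (log2FC -3.87, SE 0.30, adjusted p 1.09e-04). It was 1 of 3 tested, against 9.73% called over all tested genes. Irf8, the most abundant in CD4SP libraries, was at 19.4 to 29.7 TPM there and at 14.5 to 15.6 TPM in CD8SP libraries (log2FC 0.72, adjusted p 0.0333) and did not reach 2-fold. In every CD8SP library Itgax was above Irf8. The 8 plasmacytoid dendritic cell genes summed to 18.4 to 21.9 TPM in CD4SP and 11.1 to 15.8 TPM in CD8SP libraries, with 0 of 4 tested genes called by limma and 1 at an unadjusted p under 0.05, Bst2, which was called without CD8 replicate 3 (log2FC 1.01). Bst2, which many cells induce with interferon, was the most abundant of them, and Siglech was at 0.476 TPM in CD4SP replicate 1 and 0.336 TPM in CD8SP replicate 3 and listed at 0 elsewhere. The part of dendritic cell RNA in the class II levels was not tested.

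B cell genes were mixed. The 8 genes summed to 19.1 to 27.1 TPM in CD4SP and 27.6 to 32.9 TPM in CD8SP libraries, the reverse order of the class II sums. Cd79b, the most abundant and not called, and Cd22 carried that order. Without both, again chosen after seeing the data, the other 6 genes summed to 5.35, 6.49 and 8.10 TPM in CD4SP and to 3.21, 4.72 and 6.18 TPM in CD8SP libraries, and the groups overlapped. Cd79a had all CD4SP libraries (2.23 to 3.56 TPM) above all CD8SP libraries (1.52 to 1.73 TPM) but was not called (log2FC 0.53, adjusted p 0.17), and Ebf1 was at 0.294 to 0.434 TPM in CD4SP and listed at 0 in CD8SP libraries. The part of B cell RNA in the class II levels was not tested. Of 5 tested genes, Cd22 was called higher in CD8SP (log2FC -1.27, SE 0.29, adjusted p 0.018, and 0.0502 without CD8 replicate 2), against 1.80% of all tested genes, and Ms4a1 and Pax5 were listed at 0 in every library. Neutrophil genes were at or near 0, since 7 of the 8 with a row (of 9 in the list) were at 0 throughout and Ltf was at most 0.365 TPM. S100a8 and S100a9, abundant in neutrophils, were among those at 0. Erythroid genes, with Hba-a2 highest, reached a sum of 1.11 TPM in CD4SP replicate 2 and were listed at 0 in the other libraries, and platelet genes summed to at most 0.285 TPM, all of it Itga2b. The 8 stromal and endothelial genes summed to 2.59 to 6.86 TPM in CD4SP and 1.52 to 3.21 TPM in CD8SP libraries, most of it Pecam1, the 1 tested gene, which was called without CD4 replicate 2 (log2FC 1.19) and not in the fit of all libraries (adjusted p 0.124).

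**Figure D5:**
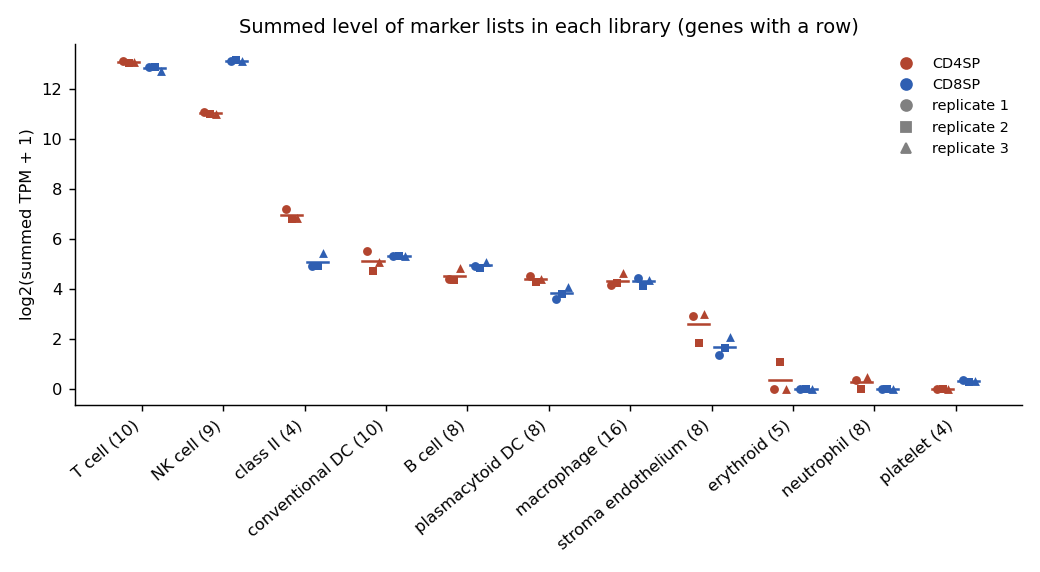
Summed TPM of each marker list on a log2(sum + 1) axis in each library, with the number of genes in brackets, CD4SP libraries in red, CD8SP libraries in blue and bars for the mean of 3 libraries. The class II sums are apart (110 to 146 against 28.6 to 42.2 TPM), macrophage sums overlap with Cd68 included, and B cell sums run from 19.1 to 32.9 TPM with CD8SP libraries on top.

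NK cell genes went the other way from the class II genes. Of 9 genes 8 were tested and 7 were called higher in CD8SP cells (1.80% of all tested genes), with sums of 2040 to 2171 TPM in CD4SP and 8871 to 8985 TPM in CD8SP libraries. The largest differences were Gzma (log2FC -4.33), Prf1 (-3.16), Klre1 (-2.66) and Klrd1 (-2.41), and Nkg7 was the most abundant. Cytotoxic CD8 T cells also use most of these genes, and Ncr1, which is more restricted to NK cells, was listed at 0 in every library. Klrb1c, which encodes NK1.1, the marker by which the study defined NK cells, was among those called. It was at 7.49, 9.14 and 5.22 TPM in CD8SP and at 1.37, 0.682 and 1.82 TPM in CD4SP libraries (log2FC -1.86, SE 0.30, adjusted p 0.00426). Tyrobp and Fcer1g, which NK cells use, were not called (adjusted p 0.749 and 0.47). The part of NK cell RNA in the adaptor levels was not tested.

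Genes around the myeloid members were called in both directions, against 9.73% called over all tested genes. Of 12 genes of lipid handling and lysosomes, 5 were tested and 1 was called, Cst7, a cystatin of cytotoxic and myeloid cells related to Cst3. It was at 249, 248 and 261 TPM in the CD4SP libraries and at 546, 554 and 525 TPM in the CD8SP ones (log2FC -1.10, SE 0.10, adjusted p 2.38e-04), the opposite order to Cst3. Ctsd, a lysosomal protease, was the most abundant of the list and not called, and Ctsb was called without CD4 replicate 2 or CD8 replicate 1 (log2FC 1.04 and 1.0003). Apoc1, Apoc2, Lpl and Trem2, often seen with Apoe in macrophages, were listed at 0 in every library. Of 10 myeloid cytokine and chemokine genes, 4 were tested and 2 were called higher in CD4SP. Csf1, the ligand of Csf1r, was at 8.98, 3.31 and 7.51 TPM in CD4SP, at 0.299 and 0.199 TPM in CD8SP replicates 1 and 2 and listed at 0 in replicate 3 (log2FC 2.63, SE 0.36, adjusted p 0.00201). Ccr2, a chemokine receptor of monocytes and of some T cells, was at 117, 103 and 130 TPM against 49.2, 56.8 and 56.0 TPM (log2FC 1.09, SE 0.14, adjusted p 0.00132). The ligand Csf1 was thus above its receptor Csf1r in every CD4SP library. In CD8SP libraries both were under 1 TPM, so their order there is not read.

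The genes most like a member over the 6 libraries were found by Pearson r of log2(TPM + 1), as a description in which all points share the split into groups. For Cd74 the closest tested genes outside the members were Ctcf (r = 0.997), Pkn2 (r = 0.996) and Fam129b (r = 0.995). Among the members, H2-Aa (r = 0.944) and H2-Eb1 (r = 0.933) were nearest to Cd74 and Fcer1g was farthest (r = -0.220). For Tyrobp the closest were Aar2 (r = 0.991), Mbd3 (r = 0.984) and Tma16 (r = 0.981), and the r of Tyrobp with Lyz2 was 0.491.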

How the data were processed

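Expression was measured in 6 libraries of polyadenylated RNA, grouped by the sample titles into 3 CD4SP and 3 CD8SP. The authors amplified cDNA, aligned reads with HISAT2 to mm10, estimated levels with StringTie and deposited TPM. TPM scales each library to a fixed total, so a class taking a larger share lowers other genes, and it keeps no depth. No counting interval or floor was possible, and an exact 0, which can be a failed estimate, is written as listed at 0. TPM sums were 997896 to 998100. Libraries held 9971 to 10649 genes at 1 TPM or more, and 85 ribosomal protein genes took 24.1% to 28.8% of TPM in CD4SP and 32.2% to 36.0% in CD8SP libraries.

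The 10476 genes that reached 1 TPM in 3 or more libraries were fitted as log2(TPM + 1) with limma 3.58.1 in R 4.3.3 (lmFit, eBayes with trend, population as the only term, Benjamini-Hochberg over all tested genes), which was first tested on simulated data. Positive values mean higher in CD4SP. Members, lists and tests were chosen with earlier results of these data known. All members were named, and of each list up to 4 called genes by size of change and the most abundant gene over all 6 libraries. Other names were chosen after their values were seen. A single gene of the lists is not reported here. Emr1 stands for Adgre1 and Sfpi1 for Spi1 in the table. Near copies (at least 95% identity over 200 nt) were searched with blastn against GENCODE transcripts of GRCm38, the assembly of mm10. Alternatives were a pseudocount of 0.1, other filters and scalings, a replicate block, library weights and leaving out libraries.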

Additional observations from a re-analysis of the deposited data

How the results depend on the processing

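All 5 calls among the members held under each of the 16 refits, with adjusted p up to 0.0308, and Cst3 made the count 6 when the adjusted p alone was used. Without the fold limit 2183 genes passed over the whole table, against 1019 with it. Median-of-ratios rescaling brought the median of all tested genes from 0.28 to 0.00017 (quantile normalization to -0.015), and under it the members called were the same 5. The log2 fold change of Tyrobp reversed to -0.14 with median-of-ratios rescaling, -0.23 with quantile normalization, -0.0029 with ribosomal protein genes removed, -0.0093 with library weights and -0.14 without CD8 replicate 3, and leaving out 1 library at a time gave -0.14 to 0.35. That of Apoe reversed to -0.19, -0.26 and -0.051 under the first 3 of these. The cause was not tested. The summed TPM of the members was 1.73-fold higher in CD4SP by the ratio of means, 3.02-fold without Lyz2, Cst3 and Apoe and 3.69-fold for the 4 class II genes, since Cst3 makes up most of the sum. Leaving out 1 library moved the count over all genes between 817 and 1202. Same-numbered libraries had correlations of 0.0515, -0.0168 and 0.0887 between their deviations from the population means. The labels do not say whether same-numbered libraries came from the same mouse, and correlations over so few libraries cannot decide it. The fit with the replicate number as a block called 997 genes and 5 members. The list counts rest on few genes: with a filter of 5 TPM the class II pathway list had 3 calls and the macrophage list 1. TPM keep no depth, so values under 1 TPM, such as those of Csf1r, Ciita and Syk, may rest on very few reads.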
